A study of Gallus gallus with 12 samples.

Results

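The microRNA families miR-122, miR-192, miR-194 and miR-375 were followed across 12 small RNA libraries from cells sorted out of chicken embryos. Members were chosen by name. In the table aligned to chicken they are the hairpins (precursors) gga-mir-122-1, gga-mir-122-2, gga-mir-194 and gga-mir-375, 4 of 850 hairpins. In the table aligned to human they are hsa-mir-122, hsa-mir-122b, hsa-mir-192, hsa-mir-194-1, hsa-mir-194-2 and hsa-mir-375, 6 of 1913 hairpins. All 4 chicken members and 4 of the 6 human members had reads, while hsa-mir-122 and hsa-mir-122b were listed at 0 in every library. An hsa- name marks the hairpin to which a read was aligned, not its origin, and the tables share their 12 libraries, so neither is independent evidence for the other.

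miR-122 is the dominant microRNA of the adult vertebrate liver, where it is known for supporting hepatocyte metabolism. miR-192 and miR-194 are transcribed together from shared clusters and are known from the epithelium of gut, kidney and liver. miR-375 is known from the endocrine pancreas, where in mouse it restrains insulin secretion, and from other endocrine and epithelial cells. The embryos were taken at Hamburger-Hamilton stages HH4-5, the time of the primitive streak, before liver, pancreas or gut tube have formed. In the RefSeq gene table of the chicken assembly GRCg7b, MIR122-1 lies on chromosome Z and MIR122-2 on chromosome W, the sex chromosomes of birds. MIR194-1 lies on chromosome 3 beside MIR215, and MIR375 on chromosome 7 between CFAP65 and CRYBA2. No label names the assembly of the deposited chicken table.

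The design sets cells sorted with GFP against cells sorted without it, from embryos that received a miR-302 construct. In the knockdown arm, embryos were electroporated with a GFP vector and a construct against chick miR-302, which the protocol calls a deletion, the sample titles a knockout and the genotype label a knock-down. In the overexpression arm, they received the GFP vector and a construct for human miR-302. The 4 groups were knockdown GFP+, knockdown GFP-, overexpression GFP+ and overexpression GFP-, with 3 libraries each. GFP marks cells that took up and expressed the vector. An arm with the GFP vector alone was not analysed here. No label says whether replicates came from separate embryos, so p-values cover only the spread among the libraries at hand, part of which may be technical. The labels do not state how many embryos went into a library.

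Values are deposited normalized reads, that is, whole reads divided by a factor for each library. In the chicken-aligned table, hairpins held 49276 to 82211 reads in knockdown GFP+ libraries, 277633 to 435716 in knockdown GFP- libraries, 1292 to 3856 in overexpression GFP+ libraries and 7546 to 277637 in overexpression GFP- libraries. A single read was thus worth 6.68 to 24.4 normalized reads in overexpression GFP+ libraries, and at most 0.158 in knockdown GFP- libraries. The early-embryo families miR-302 and miR-367 made up 30.4% to 41.9% of the hairpin signal in knockdown GFP+ and 40.7% to 48.1% in knockdown GFP-. The share was 15.6% to 26.9% in overexpression GFP+ cells and 21.0% to 41.6% in overexpression GFP- cells. The constructs act on miR-302 itself, so these shares are not an independent check of the tissue. Tests covered hairpins that averaged 10 or more normalized reads over all 12 libraries, which left 132 of the chicken and 114 of the human hairpins. Of the members, gga-mir-122-1, gga-mir-122-2, gga-mir-375, hsa-mir-192, hsa-mir-194-2 and hsa-mir-375 passed. Only the miR-122 hairpins would have passed on their GFP- libraries alone. The other members that passed did so through their GFP+ libraries, hsa-mir-192 with a mean of 88.8 over the GFP+ and 8.15 over the GFP- libraries and gga-mir-375 with 38.5 over the GFP+ and 5.95 over the GFP- libraries.

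Both miR-122 hairpins were more abundant in GFP+ than in GFP- cells, in both arms and by about the same factor. gga-mir-122-1, the hairpin with most of the miR-122 reads, had 2121, 2701 and 2732 normalized reads in the knockdown GFP+ libraries 1 to 3, against 420.2, 182 and 108 in the knockdown GFP- libraries. Its lowest GFP+ library was thus far above its highest GFP- library. The log2 fold was 3.62 with a standard error of 0.50 and a 95% confidence interval of 2.52 to 4.72, and the adjusted p was 0.000957 (limma, Benjamini-Hochberg over all tested hairpins). In knockdown GFP+ cells it was the hairpin with rank 5 by group mean, against rank 19 in knockdown GFP- cells. With the overexpression construct, gga-mir-122-1 had 789, 731 and 1824 normalized reads in the GFP+ libraries, from 118, 30 and 115 reads, against 50.8, 106 and 81.8 in the GFP- libraries, from 13, 130 and 572 reads. The groups did not overlap here either. The fold was 3.72 on the log2 scale with a standard error of 0.50 and a 95% confidence interval of 2.62 to 4.82 (limma adjusted p = 0.000687). Its rank by group mean was 6 in overexpression GFP+ cells and 50 in overexpression GFP- cells.

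gga-mir-122-2, the copy with fewer reads, showed the same pattern at a lower level. Reads may be split between the near-identical copies, so its folds and calls may not be independent of those of gga-mir-122-1. gga-mir-122-2 had 301, 449 and 464 normalized reads in knockdown GFP+ libraries, against 66.7, 20.5 and 18.7 in knockdown GFP- libraries. Its log2 fold was 3.70 with a standard error of 0.61 and an interval of 2.35 to 5.05 (limma adjusted p = 0.00206). In overexpression embryos it had 201, 121.9 and 127 normalized reads in the GFP+ libraries, which rest on 30, 5 and 8 reads, against 3.91, 19.7 and 13.0 in the GFP- libraries, which rest on 1, 24 and 91 reads. Again the lowest GFP+ library was above the highest GFP- library. The log2 fold there was 3.71 with a standard error of 0.61 and an interval of 2.36 to 5.06 (limma adjusted p = 0.00145). In the knockdown arm 13 of the 132 tested hairpins (9.85%) were called higher in GFP+ cells at an adjusted p under 0.05, and 28 (21.2%) had all GFP+ libraries above all GFP- libraries. For overexpression, 12 (9.09%) were called higher and 17 (12.9%) were separated in this way. By size of fold, gga-mir-122-2 and gga-mir-122-1 stood at ranks 3 and 4 of the 132 in the knockdown arm, and at ranks 3 and 2 in the overexpression arm.

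**Figure D1:**
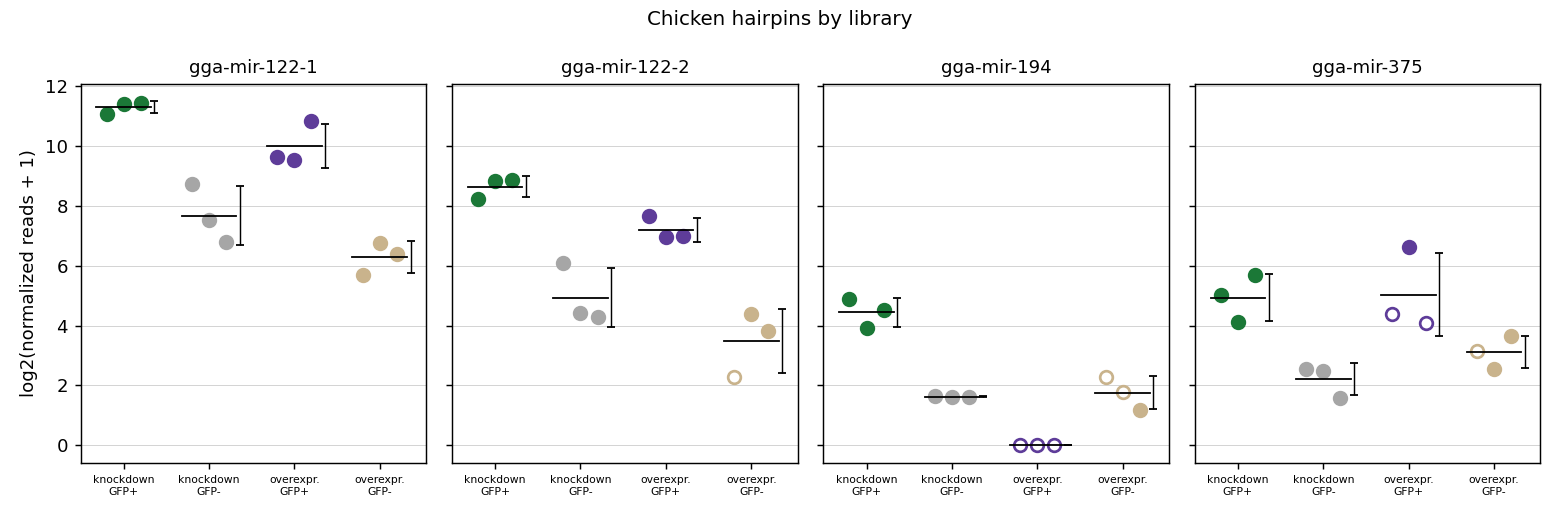
Levels of the 4 chicken hairpins in each library, as log2(normalized reads + 1) on the vertical axis, by group on the horizontal axis. Points are libraries in replicate order (open where a value rests on 3 reads or fewer), lines are group means and bars are SDs. The GFP+ points of gga-mir-122-1 and gga-mir-122-2 lie above all GFP- points in both arms, and gga-mir-194 had no reads in the overexpression GFP+ libraries.

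The calls for both miR-122 hairpins held in each of the 17 alternative fits run per arm, with log2 folds between 3.17 and 4.14 for gga-mir-122-1 in the knockdown arm and between 3.30 and 4.10 in the overexpression arm. With the replicate number as a block, the limma adjusted p of gga-mir-122-1 was 0.00432 in the knockdown and 0.00175 in the overexpression arm. The size of the fold differed between same-numbered libraries. In the knockdown arm the GFP+ to GFP- ratio of gga-mir-122-1 was 5.05, 14.8 and 25.2 for numbers 1, 2 and 3, and in the overexpression arm it was 15.5, 6.87 and 22.3. The smallest ratio came with knockdown GFP- library 1, which had the highest GFP- level. In bulk cells such as these, fewer cells with a microRNA and less of it per cell cannot be told apart.

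Together both copies made up 5.67%, 8.06% and 7.13% of the hairpin reads in knockdown GFP+ libraries, and 1.05%, 0.464% and 0.292% in knockdown GFP- libraries. With the overexpression construct they made up 3.84%, 2.71% and 6.88% in GFP+ libraries, and 0.186%, 0.292% and 0.239% in GFP- libraries. Summed over both copies the level was 2923 ± 435 normalized reads in knockdown GFP+ cells, 272 ± 190 in knockdown GFP- cells, 1264 ± 598 in overexpression GFP+ cells and 91.9 ± 35.8 in overexpression GFP- cells (SD, n = 3 each). The order of groups was therefore knockdown GFP+, overexpression GFP+, knockdown GFP- and overexpression GFP-.

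The division of miR-122 reads between the copies varied less than their level. gga-mir-122-2 held 13.7% ± 1.15 of the reads of both copies in knockdown GFP+ libraries and 12.8% ± 2.42 in knockdown GFP- libraries. It held 13.7% ± 6.90 in overexpression GFP+ libraries and 12.2% ± 4.44 in overexpression GFP- libraries (SD, n = 3 each). The 2 most unequal shares came from the same group, with 20.3% in overexpression GFP+ library 1 (95% Wilson interval 14.6% to 27.5%) and 6.50% in overexpression GFP+ library 3 (3.33% to 12.3%). Within the deeper knockdown arm, GFP- library 2 had the lowest share, 10.1% (8.57% to 11.9%), and GFP- library 3 the highest, 14.7% (12.9% to 16.8%). The intervals cover counting error only. Reads that match both near-identical copies may be split between them, so the share is uncertain.

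**Figure D2:**
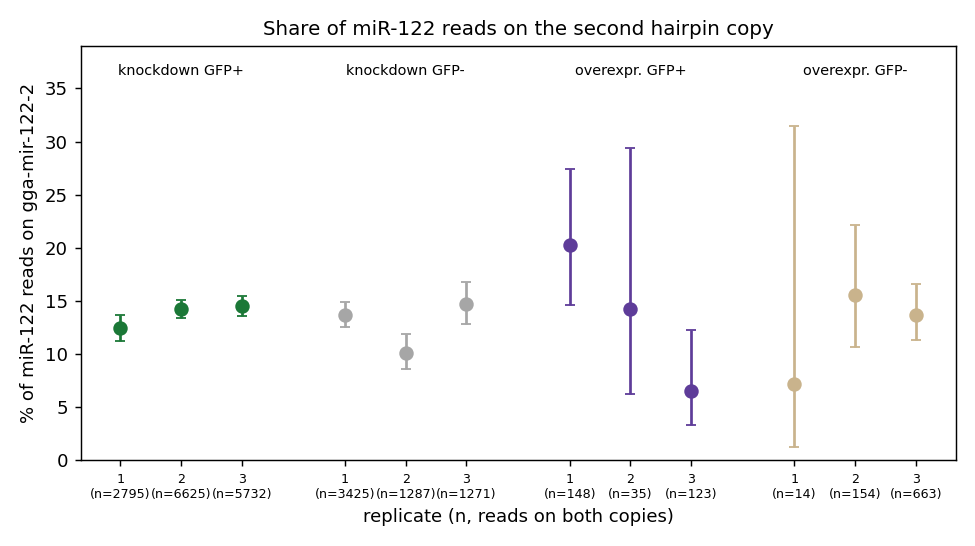
Share of miR-122 reads that lay on gga-mir-122-2, in percent of the reads on both chicken copies, for each library grouped by arm and GFP. Points are shares, bars are 95% Wilson intervals and n is the number of reads on both copies. The means of the 4 groups lie between 12.2% and 13.7%, and the intervals are widest in the overexpression arm, where library totals fall to 14 and 35 reads.

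The clustered families miR-192 and miR-194 were read mainly from the human-aligned table, since no gga-mir-192 entry was analysed here. hsa-mir-192 had 115, 102 and 113 normalized reads in knockdown GFP+ libraries, against 15.8, 6.38 and 7.21 in knockdown GFP- libraries. The GFP+ libraries were close together and all above the GFP- libraries, of which library 1 was highest. For this arm the log2 fold was 3.46 with a standard error of 0.58 and an interval of 2.18 to 4.73 (limma adjusted p = 0.00305). With no filter on low values, which hsa-mir-192 passed through its GFP+ libraries, the limma adjusted p was 0.0338. Among overexpression libraries, hsa-mir-192 had 70.9, 77.3 and 54.9 normalized reads in GFP+ libraries, against 3.69, 8.98 and 6.80 in GFP- libraries. These GFP+ values rest on 9, 2 and 3 reads, and in library 2 the share of hairpin reads was 0.386% with a 95% Wilson interval of 0.106% to 1.40%. A single read is worth 38.7 and 18.3 normalized reads in GFP+ libraries 2 and 3. Any read there lies above every GFP- library, so the lack of overlap says little for these libraries. A log2 fold of 3.25 with a standard error of 0.58 was estimated (limma adjusted p = 0.00348, or 0.0401 with no filter). The call was lost when only the overexpression groups entered the fit (limma adjusted p = 0.147), while edgeR on the recovered reads gave an adjusted p of 0.00206. Of the 114 tested human hairpins, 10 (8.77%) were called higher in GFP+ cells in the knockdown arm and 8 (7.02%) in the overexpression arm. All GFP+ libraries were above all GFP- libraries for 37 (32.5%) in the knockdown and 12 (10.5%) in the overexpression arm.

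hsa-mir-194-2 followed hsa-mir-192. It had 76.3, 42.6 and 32.1 normalized reads in knockdown GFP+ libraries, against 4.78, 4.93 and 2.76 in knockdown GFP- libraries. The groups did not overlap, and the log2 fold was 3.25 with a standard error of 0.77 (limma adjusted p = 0.0158). This call was lost when any library of the knockdown arm other than GFP+ library 3 was left out, with limma adjusted p between 0.0569 and 0.0975, and with no filter on low values (0.0985) or a pseudocount of 0.1 (0.177). Among overexpression libraries it had 23.6, 38.7 and 36.6 normalized reads in GFP+ libraries, from 3, 1 and 2 reads, against 0, 4.49 and 2.05 in GFP- libraries, from 0, 5 and 16 reads. Here the log2 fold was 3.70 with a standard error of 0.77 (limma adjusted p = 0.00754). The limma adjusted p was 0.188 with only the overexpression groups in the fit, and 0.0461 with no filter on low values.

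The other miR-194 hairpins were too low for the tested set. hsa-mir-194-1 had 22.7, 20.1 and 20.7 normalized reads in knockdown GFP+ libraries, against 3.69, 0.870 and 1.78 in knockdown GFP- libraries. Among overexpression libraries it had 1, 0 and 1 reads in GFP+ libraries, against 1, 2 and 11 reads in the GFP- libraries. gga-mir-194, the chicken counterpart, had 28.6, 14.3 and 21.7 normalized reads in knockdown GFP+ libraries, against 2.13, 2.05 and 2.10 in knockdown GFP- libraries. These values rest on 30 to 39 reads in GFP+ and 13 to 21 reads in GFP- libraries, and the groups lay well apart. With no filter on low values, where 10 of 666 hairpins were called in this comparison, gga-mir-194 had a log2 fold of 2.81 (limma adjusted p = 0.0440). For overexpression, gga-mir-194 had no reads in the 3 GFP+ libraries, against 1, 3 and 9 reads in the GFP- libraries. At the overexpression GFP- level only 0.647 reads would be expected over the 3 GFP+ libraries together, so a lower level in GFP+ cells was not detectable at this depth. A fold as in the knockdown arm would bring 6.66 reads, and the level of knockdown GFP+ cells 5.46 reads, where 0 were seen. With the group at 0 set to 3 reads in all, the level of gga-mir-194 was at least 1.82-fold lower in overexpression GFP+ than in knockdown GFP+ libraries. This bound covers counting error only and takes the knockdown GFP+ mean as exact. The fit with no filter called that difference (log2 difference -4.44, limma adjusted p = 0.00239, with 5 of 666 hairpins called). It did not call overexpression GFP+ against overexpression GFP- cells (0.197). The call between the arms rests on 3 libraries at 0 reads, so its size and p-value are not resolved at this depth. Over all tested chicken hairpins the median log2 difference between these groups was -0.72. In the human-aligned table the overexpression GFP+ libraries held 8 reads on miR-194 hairpins. There the fit with no filter called neither hsa-mir-194-1 (limma adjusted p = 0.385) nor hsa-mir-194-2 (0.825) between these groups.

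**Figure D3:**
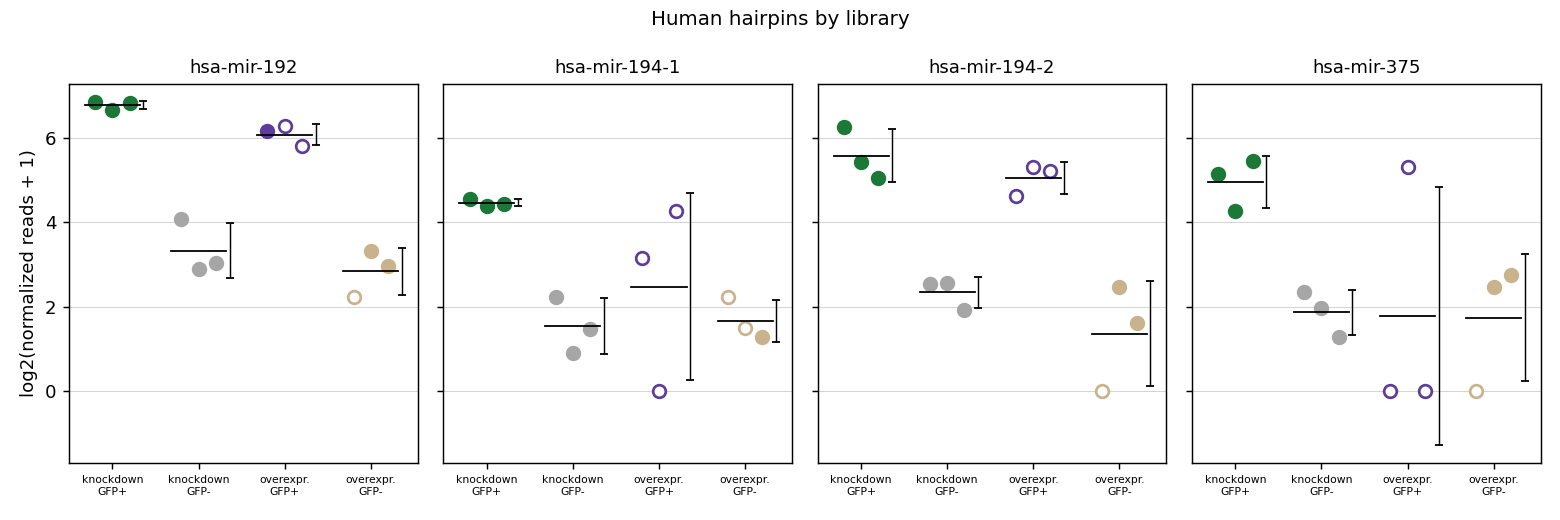
Levels of the 4 human hairpins with reads in each library, as log2(normalized reads + 1) on the vertical axis, by group on the horizontal axis. Points are libraries in replicate order (open where a value rests on 3 reads or fewer), lines are group means and bars are SDs. The GFP+ points of hsa-mir-192 and hsa-mir-194-2 lie above the GFP- points in both arms, while hsa-mir-375 overlaps between the overexpression groups. In overexpression GFP+ libraries a single read is worth 7.88 to 38.7 normalized reads. Any read there lies above the highest overexpression GFP- value of hsa-mir-194-2 (4.49).

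The call of miR-375 in the knockdown arm rested on the settings of the fit. gga-mir-375 had 31.2, 16.2 and 50.2 normalized reads in knockdown GFP+ libraries, from 36, 34 and 90 reads, against 4.83, 4.57 and 1.998 in knockdown GFP- libraries, from 34, 29 and 20 reads. The groups did not overlap, and the log2 fold was 2.73 with a standard error of 0.78 and an interval of 1.01 to 4.45 (limma adjusted p = 0.0469). The adjusted p was above 0.05 when any of the 6 knockdown libraries was left out (0.0586 to 0.212), was 0.131 with the replicate number as a block, and was 0.150 with no filter on low values, the filter that gga-mir-375 passed through its GFP+ libraries. Of 16 alternative fits 4 kept the call, among them edgeR on the recovered reads with an adjusted p of 0.00402. With the overexpression construct, gga-mir-375 had 20.1, 97.5 and 15.9 normalized reads in GFP+ libraries, which are 3, 4 and 1 reads, against 7.81, 4.91 and 11.6 in GFP- libraries, which are 2, 6 and 81 reads. The groups did not overlap, but the spread among the GFP+ libraries was wide. A single read is worth 24.4 and 15.9 normalized reads in GFP+ libraries 2 and 3. Any read there lies above every GFP- library, so the lack of overlap says little. The log2 fold of 1.91 had an interval of 0.19 to 3.63 and did not pass the threshold (limma adjusted p = 0.0908; edgeR 0.0861; DESeq2 0.0421).

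In the human-aligned table hsa-mir-375 had 34.5, 18.2 and 42.8 normalized reads in knockdown GFP+ libraries, against 4.10, 2.90 and 1.42 in knockdown GFP- libraries. The order of the libraries matched that of gga-mir-375. The log2 fold of 3.09 had a standard error of 1.32 and was not called by limma (adjusted p = 0.2001), whose spread was shared with the shallow overexpression groups. With only the knockdown groups in the fit the limma adjusted p was 0.000411, and edgeR gave 0.000666. Both kept the filter on low values, which hsa-mir-375 passed through its GFP+ libraries. With no filter the limma adjusted p was 0.434. It was 0.175 with the replicate number as a block and 0.218 to 0.468 when single libraries were left out. Of 16 alternative fits 3 called hsa-mir-375 in the knockdown arm. Among overexpression libraries hsa-mir-375 had 0, 1 and 0 reads in GFP+ libraries, against 0, 5 and 45 reads in GFP- libraries, and the log2 fold of 0.031 had an interval of -2.87 to 2.93 (limma adjusted p = 0.991).

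The GFP effects of the arms were then compared directly, as the effect in the knockdown arm minus that in the overexpression arm. For gga-mir-122-1 the difference was -0.10 on the log2 scale with an interval of -1.65 to 1.45 (limma adjusted p = 0.947). For gga-mir-122-2 it was -0.0046 with an interval of -1.91 to 1.90 (limma adjusted p = 0.996), so a difference inside these intervals was not detectable. gga-mir-375 had a difference of 0.82 with an interval of -1.62 to 3.25 (limma adjusted p = 0.818). In the human-aligned table the difference was 0.21 for hsa-mir-192 (-1.60 to 2.01), -0.45 for hsa-mir-194-2 (-2.84 to 1.94) and 3.06 for hsa-mir-375 (-1.04 to 7.16), with limma adjusted p of 0.935, 0.897 and 0.583. None of these tested members was called by limma, edgeR or DESeq2, and none had an unadjusted limma p under 0.05. gga-mir-194, below the filter, had a difference of 4.57 in the fit with no filter. Its unadjusted limma p was 0.000175 and its adjusted p 0.117, and both rest on overexpression GFP+ libraries at 0 reads. Among all tested hairpins 0 of 132 chicken (0%) and 3 of 114 human hairpins (2.63%) were called by limma. At an unadjusted p under 0.05 the count for chicken hairpins was 9, and edgeR and DESeq2 called 0.

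**Figure D4:**
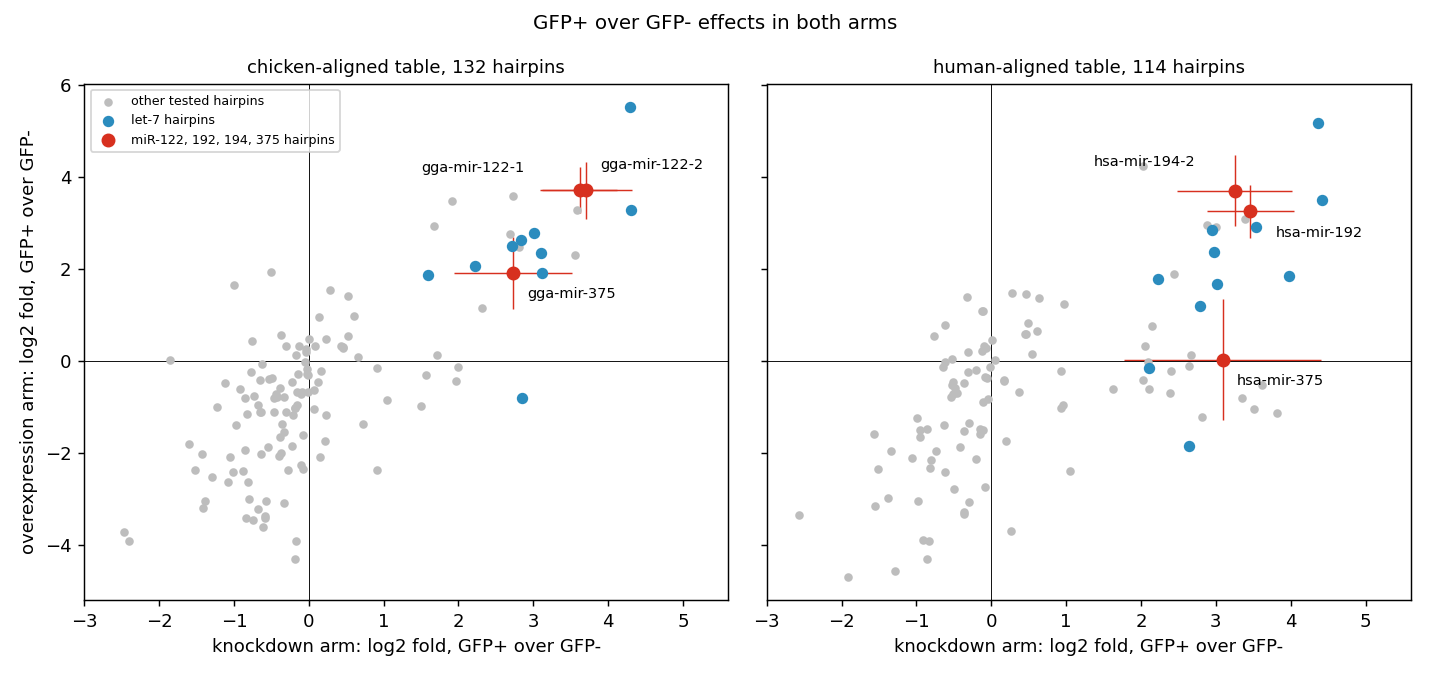
GFP+ over GFP- effect in the knockdown arm (horizontal, log2 fold) and in the overexpression arm (vertical, log2 fold) for the 132 tested chicken and 114 tested human hairpins. Red points are the miR-122, miR-192, miR-194 and miR-375 hairpins with standard errors, blue points the let-7 hairpins. Both miR-122 hairpins lie near 3.7 on both axes, and hsa-mir-375 lies at 3.09 in the knockdown and 0.031 in the overexpression arm.

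Within a GFP class, no difference of a tested member between the arms passed the threshold of limma. Among GFP- cells, gga-mir-122-1 averaged 79.7 ± 27.9 normalized reads in the overexpression arm and 237 ± 163 in the knockdown arm (SD, n = 3 each), without overlap. The log2 difference was -1.40 with an interval of -2.49 to -0.30, the limma adjusted p was 0.547 and that of DESeq2 0.0308. gga-mir-122-2 averaged 12.2 ± 7.91 in overexpression and 35.3 ± 27.2 in knockdown GFP- cells, which overlapped (log2 difference -1.44, limma adjusted p = 0.636). gga-mir-375 lay the other way, at 8.10 ± 3.34 in overexpression and 3.80 ± 1.57 in knockdown GFP- cells, also without overlap (log2 difference 0.92, limma adjusted p = 0.975). How many of all tested hairpins did not overlap between the arms was not counted. The human members overlapped between these groups and had a limma adjusted p of 0.999 each. In this comparison limma called 0 of 132 chicken and 0 of 114 human hairpins (0%). At an unadjusted p under 0.05 the counts were 10 and 3, edgeR called 0 and 1, and DESeq2 called 5 higher and 3 lower in the chicken table and 2 higher and 1 lower in the human table.

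Among GFP+ cells, gga-mir-122-1 averaged 1115 ± 615 normalized reads in the overexpression arm and 2518 ± 344 in the knockdown arm, without overlap (log2 difference -1.30, interval -2.39 to -0.20, limma adjusted p = 0.148). gga-mir-122-2 averaged 149.8 ± 44.0 in overexpression and 405 ± 90.4 in knockdown GFP+ cells (log2 difference -1.44, limma adjusted p = 0.150). Both differences were below the threshold. The libraries of gga-mir-122-2 did not overlap either, nor did those of hsa-mir-192. The share of all tested hairpins without overlap between the arms was not counted, so the lack of overlap is only a description. The median of all tested chicken hairpins was itself -0.72 in this comparison. gga-mir-375 had a log2 difference of 0.10 (limma adjusted p = 0.934), which turned to -0.017 with DESeq2 size factors. hsa-mir-192 and hsa-mir-194-2 differed by -0.70 and -0.53 (limma adjusted p = 0.427 and 0.629), and hsa-mir-375 by -3.19 (0.211). Without overexpression GFP+ library 2, whose 1 read is the group's only one, hsa-mir-375 differed by -4.96 (limma adjusted p = 0.00528). That fit holds overexpression GFP+ libraries 1 and 3 at 0 reads, where 3 reads would be 23.6 and 54.9 normalized reads. Knockdown GFP+ libraries had 18.2 to 42.8, so the size of this difference is not resolved at this depth. Of all tested hairpins, 8 of 132 chicken (6.06%) and 4 of 114 human hairpins (3.51%) were called in this comparison. The arms differ in depth, and any batch between them cannot be told apart from the construct.

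Depth moved with GFP in both arms, since each GFP+ library held fewer hairpin reads than the same-numbered GFP- library. Its part in the results was not tested. The depths of the GFP classes overlapped little in the chicken-aligned table, where the overexpression GFP+ libraries were shallower than every GFP- library and 4 GFP- libraries were deeper than every GFP+ library. The other GFP- libraries, overexpression 1 and 2 with 7546 and 52653 hairpin reads, had 50.8 and 106 normalized reads of gga-mir-122-1.

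**Figure D5:**
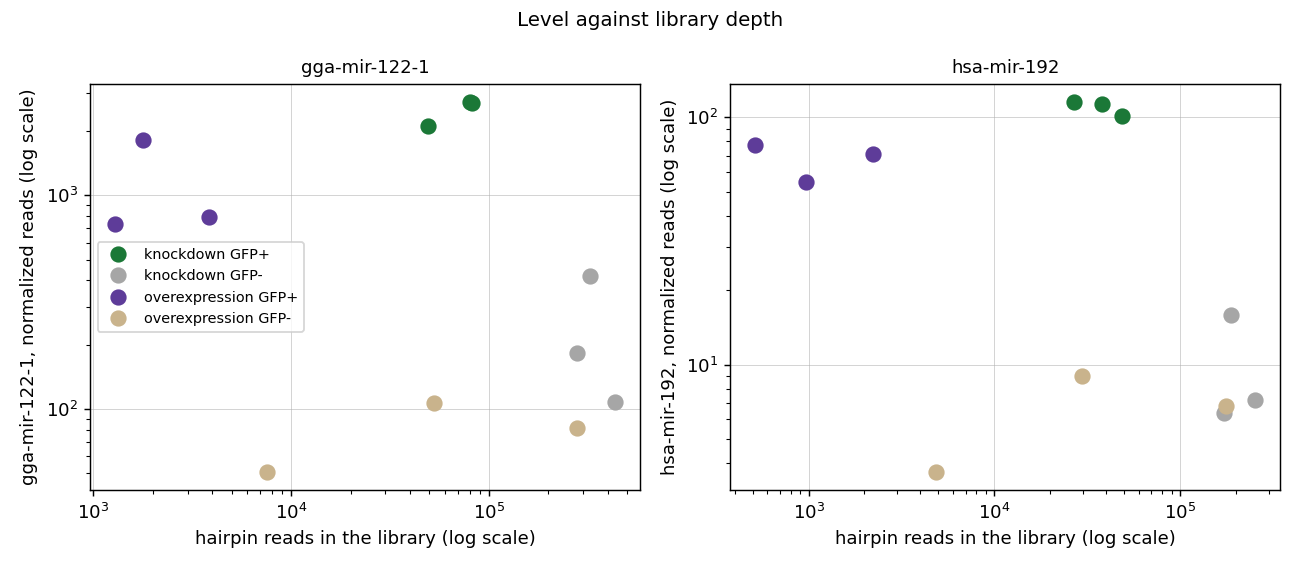
Level of gga-mir-122-1 (left) and hsa-mir-192 (right) in normalized reads against the hairpin reads of the library, both axes on a log scale, with a colour for each group. All GFP+ libraries lie above all GFP- libraries on the vertical axis, but in the chicken-aligned table only the GFP- libraries with 7546 and 52653 reads fall within the depths of the GFP+ libraries. For hsa-mir-192, any read in overexpression GFP+ libraries 2 and 3 lies above every GFP- library.

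The families divided differently between the tables. Over the 12 libraries, 22272 reads lay on chicken miR-122 hairpins and 0 on human ones. For miR-194 there were 164 reads on the chicken and 515 on the human hairpins, and for miR-375 there were 340 on the chicken and 257 on the human hairpin. miR-192 had 827 reads on the human hairpin. The same reads can be counted in both tables, and the mature arms, which would name the product, were all at 0 in both tables.

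The hairpins most like each member over the 12 libraries were ranked by Pearson's r of log2(normalized reads + 1), as a description, since the libraries of a group share a treatment and a range of depth. For gga-mir-122-1 they were gga-let-7c (r = 0.976), gga-let-7a-1 (0.976), gga-mir-122-2 (0.974), gga-let-7a-2 (0.970) and gga-let-7j (0.965). For gga-mir-122-2 they were gga-let-7j (0.992), gga-let-7b (0.982), gga-let-7a-3 (0.980), gga-mir-122-1 (0.974) and gga-let-7a-1 (0.973). After group means were subtracted, r was 0.941 between gga-mir-122-2 and gga-let-7j and 0.695 between the miR-122 copies. gga-let-7b, of the let-7 family that marks late differentiation, averaged 428 ± 54.4 normalized reads in knockdown GFP+ against 24.3 ± 17.3 in knockdown GFP-. It averaged 211 ± 7.34 in overexpression GFP+ cells and 6.37 ± 6.56 in overexpression GFP- cells (SD, n = 3 each). Its log2 fold in the overexpression arm (5.52) was the largest of the tested chicken let-7 hairpins. gga-let-7i lay the other way there (-0.79, limma adjusted p = 0.607).

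hsa-mir-192 and hsa-mir-194-2 had r = 0.960 with each other, and 0.585 after group means were subtracted. Their other nearest hairpins were hsa-let-7b, hsa-let-7c, hsa-let-7a-2 and hsa-let-7a-3, with r between 0.919 and 0.977. For miR-375 the nearest hairpins were mostly of other families. Those nearest to gga-mir-375 were gga-mir-125b-2 (0.788), gga-mir-124a-2 (0.769), gga-mir-1732-1 (0.757), gga-mir-1692 (0.741) and gga-mir-1601 (0.711), and its r with gga-mir-122-1 was 0.664, or -0.15 after group means were subtracted. For hsa-mir-375 they were hsa-mir-125a (0.768), hsa-mir-29a (0.694), hsa-let-7a-3 (0.617), hsa-mir-10a (0.617) and hsa-mir-3648-1 (0.612).

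Of other families known from liver, gut and pancreas, miR-148 and miR-7 could be tested. The list also held miR-215, a seed relative of miR-192, miR-216, miR-217, miR-802, miR-885 and miR-483, of which no hairpin passed the filter in either table. Of its 5 tested chicken hairpins limma called 0 in either arm. Of all 132 tested hairpins, 14 (10.6%) were called in either direction in the knockdown arm and 25 (18.9%) in the overexpression arm, so 0 of 5 is near this background. The counts for the list were 0 in the knockdown arm and 1 in the overexpression arm (a lower one) at an unadjusted p under 0.05, and edgeR and DESeq2 called 0. Their median log2 fold was -0.19 in the knockdown and -1.03 in the overexpression arm, beside -0.17 and -0.67 over all 132 tested hairpins. The lower one was gga-mir-148b, with 8.91 ± 15.4 normalized reads in overexpression GFP+ and 31.0 ± 3.48 in overexpression GFP- cells (log2 fold -3.40, limma adjusted p = 0.0503). The GFP+ value rests on 4 reads, all in 1 library, and the group median was 0. With the replicate number as a block gga-mir-148b passed (limma adjusted p = 0.0424), while the adjusted p was 0.473 with edgeR and 0.456 with DESeq2. gga-mir-148a, known from liver, averaged 74.1 ± 22.8 normalized reads in knockdown GFP+ and 69.0 ± 10.6 in knockdown GFP- cells, and 49.8 ± 41.8 in overexpression GFP+ and 83.6 ± 16.4 in overexpression GFP- cells. gga-mir-7-1, of a family known from endocrine pancreas and nerve cells, averaged 127 ± 22.8 in knockdown GFP+ and 140.6 ± 7.05 in knockdown GFP- cells, and 75.6 ± 50.1 in overexpression GFP+ and 105 ± 33.6 in overexpression GFP- cells. gga-mir-215, the neighbour of gga-mir-194, was under the filter, with 6.05 ± 3.86 in knockdown GFP+ and 1.82 ± 0.728 in knockdown GFP- cells (SD, n = 3 each), and with 0, 1 and 1 reads in overexpression GFP+ and 0, 1 and 7 reads in overexpression GFP- libraries. Of the 4 tested human hairpins of the list limma called 0 in either arm, and none had an unadjusted p under 0.05, where 8.77% of all tested human hairpins were called in the knockdown and 18.4% in the overexpression arm. DESeq2 called 1 lower in the knockdown arm and edgeR called 1 lower in the overexpression arm. No chicken entry of miR-802, miR-885 or miR-483 was analysed here.

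Lists that mark other cell types were read the same way. Of the 10 tested let-7 hairpins of the chicken table, 8 were called higher by limma in each arm, with a median log2 fold of 2.93 in the knockdown and 2.43 in the overexpression arm. Their summed level was 3276 to 4161 normalized reads in knockdown GFP+, 308 to 692 in knockdown GFP-, 1243 to 1855 in overexpression GFP+ and 148.5 to 451.3 in overexpression GFP- libraries. let-7a copies can share reads, as the miR-122 copies can. Of the 11 tested human let-7 hairpins, limma called 7 higher in the knockdown arm. In the overexpression arm it called 5 higher and 1 lower, where 8 of all 114 were called higher and 13 lower. The lower one was hsa-let-7i (log2 fold -1.83, limma adjusted p = 0.0487). No tested chicken hairpin of the neural, muscle and cardiac, blood and endothelium, epithelium or mesenchyme lists was called higher by limma in either arm. Called lower by limma in the overexpression arm were the 1 tested blood and endothelium hairpin and 1 of 5 mesenchyme hairpins. So were 2 of 5 early-embryo hairpins (miR-302 and miR-367), where 13 of all 132 were called lower. Of these 5, edgeR and DESeq2 each called 1 lower in that arm, and none was called in the knockdown arm. Of 3 muscle and cardiac hairpins edgeR and DESeq2 each called 2 lower in both arms. They also each called the 1 tested blood and endothelium hairpin lower in both arms, where its unadjusted limma p was under 0.05. In the knockdown arm 1 of the 3 muscle and cardiac hairpins lay higher in GFP+ cells (log2 fold 0.91, limma adjusted p = 0.739). At an unadjusted p under 0.05 the count of higher hairpins was 1, a neural hairpin in the knockdown arm, and edgeR and DESeq2 each called 1 neural hairpin there. Muscle and cardiac hairpins summed to 71.0 to 165 normalized reads in knockdown GFP+, 249.9 to 688 in knockdown GFP-, 24.4 to 190.3 in overexpression GFP+ and 266 to 1067 in overexpression GFP- libraries. Blood and endothelial hairpins summed to 56.9 to 93.6 in knockdown GFP+, 107 to 168 in knockdown GFP-, 33.4 to 97.5 in overexpression GFP+ and 315 to 471 in overexpression GFP- libraries, with miR-155 at 0 and no chicken entry of miR-150 or miR-486 analysed here. Whether these differences in level come from cell makeup was not tested. Their part in the levels of miR-122, miR-192, miR-194 and miR-375 was not tested either.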

How the data were processed

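The members and lists were chosen with earlier results of these data known. The authors deposited a chicken-aligned and a human-aligned table, each a normalized signal with all 12 libraries. Per the submitters' processing notes, FastQC 0.11.5, cutadapt and STAR 2.7.0f were used, with hg38 as the human build. Neither the chicken assembly, nor how reads were counted, nor the normalization was given in the sources used here. Values above 0 were whole multiples of 1 step in every library (100% within 0.001 reads), from which whole reads were recovered. Each table lists hairpins and mature arms. No arm was above 0. Repeated hairpin names were dropped after the first (61 chicken, 8 of them above 0, and 5 human, 3 of them above 0).

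log2(value + 1) of hairpins with a mean of at least 10 was fitted with limma 3.58.1 (R 4.3.3) on the 4 group means, with a trend, tested two-sided and adjusted by Benjamini-Hochberg over all hairpins of a table. Calls were made at an adjusted p under 0.05. The added 1 makes fold changes of hairpins with low values smaller. Where shallow libraries hold 0 reads, a fall on this scale can instead be larger than their depth resolves. edgeR 4.0.16 (quasi-likelihood, trimmed means taken against the deepest library) and DESeq2 1.42.0 (size factors from the tested hairpins) were run on the recovered reads. Wilson intervals (95%) cover counting error only. The main limma fit, edgeR and DESeq2 were tested on simulated data with known changes, and the other settings were not. The changes were placed in the knockdown GFP+ group only, so recovery in the shallow overexpression GFP+ libraries was not simulated.

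Named hairpins were every member, the 5 tested hairpins nearest to each tested member by Pearson's r, and liver, gut and pancreas companions, with gga-mir-215, which is below the minimum, added after its values were seen. Replicate numbers come from the sample titles. In the chicken table the deviations of same-numbered GFP+ and GFP- libraries from their group means correlated by 0.15, 0.38 and 0.14 in the knockdown arm. In the overexpression arm they correlated by 0.21, 0.32 and 0.11. Libraries with other numbers correlated by -0.284 to 0.192 in the knockdown and -0.389 to 0.113 in the overexpression arm. The ranges overlap, so these correlations do not settle whether the numbers pair the samples. Chromosomes and neighbours come from the RefSeq table of GRCg7b, and no coordinates are given, since the builds cannot be matched.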

Additional observations from a re-analysis of the deposited data

How the results depend on the processing

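Of 508 values of single tested hairpins under another setting, 447 kept their direction and their side of the threshold, 21 lost and 6 gained a call and 34 turned sign. Every sign change was in a value without a call. The arm difference of gga-mir-122-1 ranged from -0.55 to 0.42 when single libraries were left out, and that of gga-mir-122-2 from -0.44 to 0.59. For gga-mir-122-2 it was 0.035 with DESeq2, 0.011 with DESeq2 size factors, 0.063 with TMM scaling, 0.10 with edgeR and 0.44 with a pseudocount of 10. For hsa-mir-192 the arm difference was -0.070 when scaled to summed hairpin reads and -0.034 to 0.58 without single libraries. For hsa-mir-194-2 it was 0.24 with DESeq2, 0.39 with edgeR, 0.21 with a pseudocount of 10 and -0.998 to 0.23 without single libraries. In overexpression GFP+ against knockdown GFP+ cells gga-mir-375 was -0.017 with DESeq2 size factors and -0.69 to 0.58 without single libraries. The GFP effect of hsa-mir-375 in the overexpression arm was -0.15 with DESeq2 size factors, -0.12 with TMM scaling, -0.21 with edgeR, -0.93 with a pseudocount of 0.1 and -1.74 to 0.92 without single libraries. In overexpression GFP- against knockdown GFP- cells it was 0.63 with DESeq2, 0.64 with edgeR, 0.046 with a pseudocount of 10 and -0.64 to 0.74 without single libraries. The cause was not tested.

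In the knockdown arm the count of called human members (2) was 1 with no filter, 1 with a pseudocount of 0.1, 0 with a mean of at least 50 (no human member reaches it) and 1 to 2 without single libraries. In the overexpression arm (2) it was 0 with only the compared groups and 0 with a mean of at least 50. In overexpression GFP+ against knockdown GFP+ cells (0) it was 0 to 1 without single libraries, and in chicken GFP- cells between arms (0) it was 1 with DESeq2. Over all tested chicken hairpins, 14 were called in the knockdown arm (7 to 39 over all settings) and 25 in the overexpression arm (10 to 42), and of human hairpins 10 (6 to 54) and 21 (0 to 37). Calls between arms numbered 0 (0 to 6) for the chicken and 3 (0 to 6) for the human GFP effect, 0 (0 to 8) and 0 (0 to 3) among GFP- cells, and 8 (0 to 16) and 4 (0 to 17) among GFP+ cells. In the overexpression arm chicken calls were 12 higher and 13 lower, against 14 and 6 when scaled to summed hairpin reads, and human calls 8 and 13, against 9 and 5, or 7 and 26 with TMM. The median log2 fold of all chicken hairpins was -0.17 in the knockdown arm (-0.04 with TMM) and -0.67 in the overexpression arm (-0.30 with summed reads).

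With the replicate block the chicken call of gga-mir-375 in the knockdown arm was lost (adjusted p = 0.131, limma), and no other member's call changed, while gga-mir-148b of the companion list gained one in the overexpression arm (0.0424). In the human table same-numbered libraries did not all deviate together (correlations 0.04, -0.07 and -0.14 in the knockdown and 0.17, 0.36 and -0.13 in the overexpression arm), and there hsa-mir-192 kept an adjusted p of 0.0273 and hsa-mir-194-2 of 0.0472 in the knockdown arm (limma). A block could not be fitted between arms, where numbers are nested. Depth limits the overexpression GFP+ group most, where a hairpin without reads can hold up to 73.1 normalized reads in the shallowest chicken-aligned library.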

Other observations

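gga-mir-7b, a companion that was tested, separated libraries by number rather than by GFP. It had 89.9 normalized reads in knockdown GFP+ library 2 and 267 in knockdown GFP- library 2, and 120.3 in overexpression GFP+ library 1 and 117 in overexpression GFP- library 1. In the other 8 libraries it had at most 3.35. The 4 high libraries are 2 same-numbered GFP+ and GFP- pairs. miR-122 did not follow these pairs: gga-mir-122-1 had 2701 in knockdown GFP+ library 2 and 182 in knockdown GFP- library 2, and 789 in overexpression GFP+ library 1 and 50.8 in overexpression GFP- library 1.

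hsa-mir-122 was listed at 0 in all 12 libraries, although 22272 reads of the same libraries lay on the chicken miR-122 hairpins. gga-mir-122b, gga-mir-122b-1 and gga-mir-122b-2, which the rule does not include, were also at 0 in all 12. In RefSeq's GRCg7b, MIR122B-1 is the next gene after MIR122-2 on chromosome W.

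hsa-mir-802, known from liver, had 35 reads in the knockdown GFP+ libraries and 7 in the far deeper knockdown GFP- libraries, with means of 6.09 ± 6.50 normalized reads in knockdown GFP+ and 0.277 ± 0.0120 in knockdown GFP- libraries (SD, n = 3 each). Knockdown GFP+ library 2 held 27 of the 35 reads, and library 1 held none. Overexpression GFP+ libraries held 1 read and overexpression GFP- libraries 2. The hairpin was under the filter on low values and was picked out after its values were seen.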
